A study of Mus musculus with 10 samples.

Results

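The transcript levels of 36 direct target genes of the transcription factor p53 were examined in 10 RNA sequencing libraries of mouse stem cells and fibroblasts. The 36 genes were taken from a list of known direct targets, by gene symbol, and all were found among the 54532 genes of the count and FPKM tables, the latter scaled to gene length and depth. All cells are of the 129SV strain by their labels. Epiblast stem cells (EpiSC), which come from the post-implantation epiblast, gave 5 libraries. Of these, haEpi1_1 and haEpi5_1 are labelled haploid with p53 absent (n = 2, 1 library of each of 2 lines), p53KO2nEpiSCs diploid with p53 absent (n = 1), and Epi_fema and Epi_male wild-type diploid (n = 2). Epiblast-like cells (EpiLC) gave p53KOhaEpiLCs, labelled haploid with p53 absent (n = 1), and WT_haEpiLCs, labelled wild-type haploid (n = 1). Embryonic stem cells (ESC) gave haESCs, labelled wild-type haploid (n = 1), and WT_ESCs, labelled wild-type diploid (n = 1). Mouse embryo fibroblasts (MEF) gave 1 wild-type diploid library. Hence no ESC library carries the p53-absent label, here called p53-KO, and only 2 groups hold more than 1 library. The design text speaks of triplicates, but the tables hold 1 column per title, and whether a column stands for 1 culture or several is not stated. Within them the libraries differ by line or by the fema and male of their titles, so a p-value speaks only of the spread among these libraries, part of which may be technical. The sources used here do not say how p53 was disrupted.

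The p53 protein, encoded by Trp53, binds a DNA element made of a pair of similar half-sites and raises transcription of the genes next to it. DNA damage and other stress stabilise p53, and its targets then halt the cell cycle, repair DNA, adjust metabolism or start apoptosis. The ubiquitin ligase gene Mdm2 is itself a target and limits p53. Pluripotent stem cells hold much p53 protein, and loss of p53 is known to help haploid mammalian cells keep their single chromosome set in culture.

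The DNA element that unites these genes can be read in some of their promoters, and it is shown here because the genes below were chosen as direct targets. RefSeq promoter windows (build GRCm38.p6, 250 bases before to 50 bases after a start site) were found for 28 of the 36 genes. A pair of p53 half-sites was searched on both strands: each half-site of 10 bases had to hold a core of 4 bases that begins with C, ends with G and has A or T at both inner places, with at most 1 base between them and at most 3 mismatches to the p53 half-site consensus outside the cores. Such a pair was found in 5 of 28 members (17.9%) and in 332 of 27025 genes with a window (1.23%). A perfect p53 half-site was found in 9 members (32.1%) and in 9.55% of all genes with a window. A match is a description of these letters and not evidence of binding. Capitals mark the half-site pair, or for Ccng1 and Ei24 the perfect half-site. The searches overlap, since a perfect half-site can be part of a pair. The 5 pairs and 2 of the half-sites read as follows, 5′ to 3′ on the strand of the gene.
Cdkn1a (plus strand, capitals at chr17:29090928-29090947): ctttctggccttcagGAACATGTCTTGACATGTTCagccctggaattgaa
Bbc3 (plus strand, capitals at chr7:16309486-16309505): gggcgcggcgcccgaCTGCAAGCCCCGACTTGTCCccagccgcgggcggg
Bax (minus strand, capitals at chr7:45467079-45467099): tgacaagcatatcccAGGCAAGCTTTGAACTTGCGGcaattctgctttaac
Aen (plus strand, capitals at chr7:78895937-78895956): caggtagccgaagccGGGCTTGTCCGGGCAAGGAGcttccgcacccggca
Tigar (minus strand, capitals at chr6:127109746-127109765): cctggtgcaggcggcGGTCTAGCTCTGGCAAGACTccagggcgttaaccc
Ccng1 (minus strand, capitals at chr11:40755462-40755471): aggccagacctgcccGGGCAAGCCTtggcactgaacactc
Ei24 (minus strand, capitals at chr9:36797335-36797344): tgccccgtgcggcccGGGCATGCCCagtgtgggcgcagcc

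The whole 300-base window is shown for Bbc3, which among the 5 genes with a half-site pair differed most in level between the wild-type EpiSC libraries. It lies at chr7:16309333-16309632 on the plus strand.
Bbc3 promoter: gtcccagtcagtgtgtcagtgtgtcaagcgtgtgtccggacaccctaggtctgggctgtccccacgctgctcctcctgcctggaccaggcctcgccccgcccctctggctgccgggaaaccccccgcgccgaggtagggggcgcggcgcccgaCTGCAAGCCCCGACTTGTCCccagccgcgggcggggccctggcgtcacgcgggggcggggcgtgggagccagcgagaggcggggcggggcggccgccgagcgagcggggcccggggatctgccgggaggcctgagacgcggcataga
Its half-site pair begins 97 bases before the start site. Among these 5 members, Bbc3, Bax, Aen and Cdkn1a were lower in p53KOhaEpiLCs than in WT_haEpiLCs by more than 2-fold, while Tigar was not, as given below. Eda2r, Phlda3 and Psrc1, with larger differences, held no match in these windows, which says nothing of sites farther away. Of all 36 members, 21 were at least 2-fold lower in p53KOhaEpiLCs than in WT_haEpiLCs. Perfect half-sites not printed here lay in Rap2b, Polk, Sesn1 and Gadd45a. Their log2 ratios of p53KOhaEpiLCs over WT_haEpiLCs were -1.54, -1.42, 0.55 and -0.08. A link between a match and a level was not tested.

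The libraries held 15862113 to 18814003 counts. Levels are depth-normalised counts (CPM) scaled by TMM factors (trimmed mean of M-values), and a count of 0 would allow 0.150 to 0.194 CPM (3 counts in a library); no member was at 0. Intervals cover counting error only. The Trp53 level did not separate the labels: 36.9 CPM in Epi_fema and 28.5 CPM in haESCs, both labelled wild type, lay below haEpi1_1 (50.5 CPM) and haEpi5_1 (61.8 CPM), both labelled p53-KO. It was 2.17 CPM in p53KO2nEpiSCs and 32.9 CPM in p53KOhaEpiLCs, against 199 CPM in Epi_male, 356 CPM in WT_haEpiLCs and 375 CPM in WT_ESCs. A disrupted gene can still give a transcript, so every genotype below is the one in the label. Summed over 10 naive pluripotency markers, the level was 1590.4 and 3237 CPM in the ESC libraries and 18.9 to 95.8 CPM in EpiSC. Over 8 post-implantation markers it was 309 to 351 CPM in ESC and 1074 to 1956 CPM in EpiSC. The naive sum was 777 CPM in p53KOhaEpiLCs and 80.3 CPM in WT_haEpiLCs. The ESC, EpiSC and MEF libraries thus carried the markers of their labels, while the EpiLC libraries differed from each other, and 12 fibroblast markers summed to 63292 CPM in MEF against 22.7 to 1726 CPM elsewhere. In bulk RNA, fewer cells of a type and less RNA per cell cannot be told apart.

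Across the pluripotent libraries, most p53 targets were high in the same 3 libraries labelled wild type, Epi_male, WT_haEpiLCs and WT_ESCs. Of the 36 members, 12 had their highest level of the 9 pluripotent libraries in Epi_male, 10 in WT_haEpiLCs and 8 in WT_ESCs, and none in Epi_fema or haESCs. The lowest level lay in p53KO2nEpiSCs for 15 members, in haESCs for 7 and in p53KOhaEpiLCs for 6. The shares of all genes with their highest or lowest level in each library were not counted, so these numbers only describe the members. Per length, the median over the members was 16.3 FPKM in Epi_male, 15.4 in WT_haEpiLCs and 12.3 in WT_ESCs. It was 5.10 FPKM in p53KO2nEpiSCs, 5.44 in p53KOhaEpiLCs, 6.63 in Epi_fema, 6.75 in haESCs, 7.68 in haEpi1_1 and 11.5 in haEpi5_1. Per length, the most abundant member was Bax in WT_haEpiLCs (138 FPKM) and WT_ESCs (130.2 FPKM), Ccng1 in Epi_male (116 FPKM) and Epha2 in Epi_fema (51.9 FPKM). Fas, Rrm2b and Gdf15 were among the least abundant members per length.

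**Figure D1:**
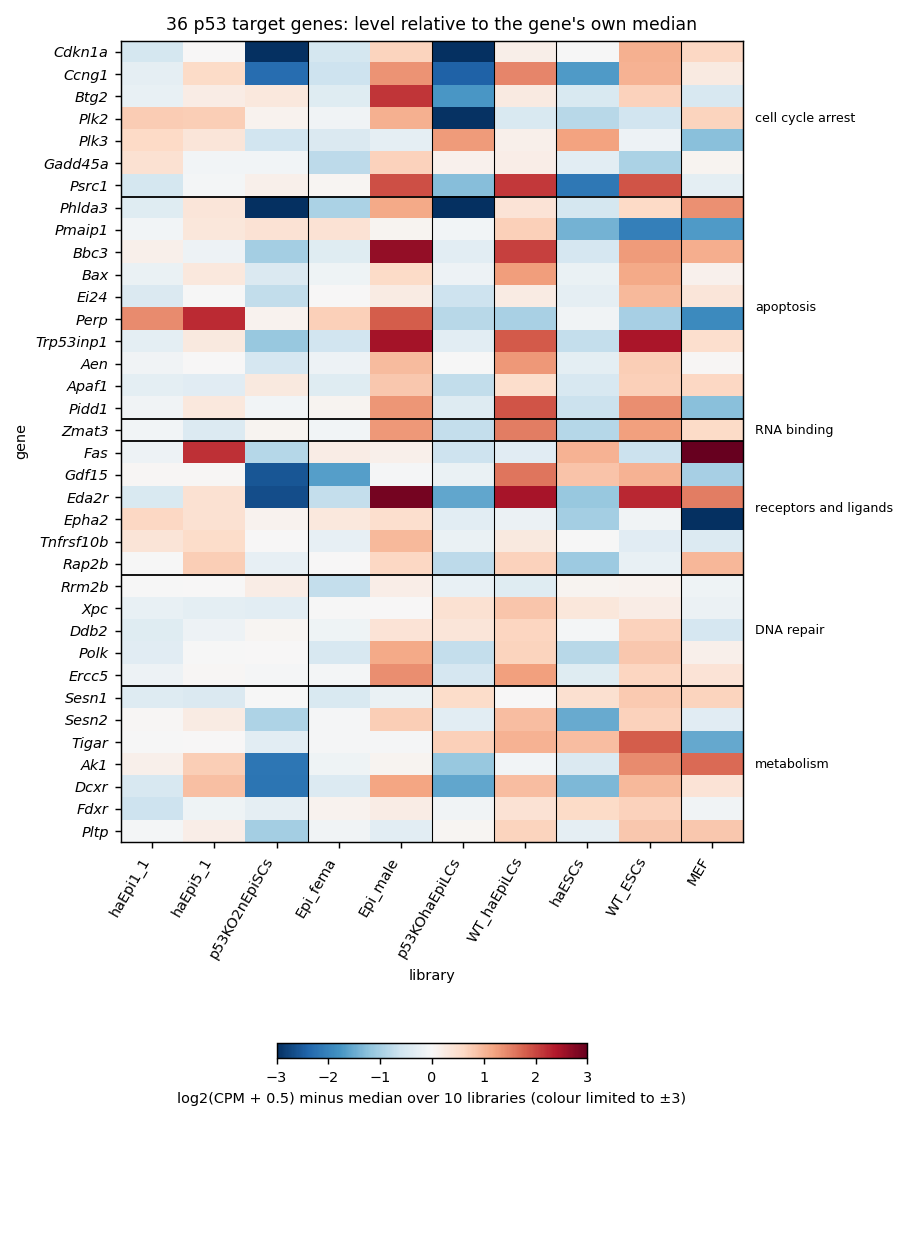
Levels of the 36 p53 target genes (rows, by role) in 10 libraries (columns, by cell type), as log2(CPM + 0.5) minus the median of the gene over the libraries; red is above and blue below that median. Red columns are seen at Epi_male, WT_haEpiLCs and WT_ESCs, and the darkest blue cells at p53KO2nEpiSCs and p53KOhaEpiLCs.

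Among the 7 members that restrain or accompany the cell cycle, Cdkn1a, Ccng1, Btg2 and Psrc1 were at least 2-fold lower in p53KOhaEpiLCs than in WT_haEpiLCs, in haESCs than in WT_ESCs and in Epi_fema than in Epi_male, as 0.710% of all genes were in all 3 pairs. Plk3 went the other way in the EpiLC and ESC pairs. Cdkn1a (chr17:29090976-29100727, mm10, ENSMUSG00000023067) encodes p21, the inhibitor of cyclin-dependent kinases. It stood at 71.3 CPM in haEpi1_1, 104 CPM in haEpi5_1, 4.34 CPM in p53KO2nEpiSCs, 70.8 CPM in Epi_fema and 162 CPM in Epi_male. Outside EpiSC it stood at 12.0 CPM in p53KOhaEpiLCs, 116 CPM in WT_haEpiLCs, 102 CPM in haESCs, 215 CPM in WT_ESCs and 158 CPM in MEF. The diploid p53-KO EpiSC library (95% Poisson interval 3.38 to 5.49 CPM) and the p53-KO EpiLC library (10.4 to 13.9 CPM) thus held little of it, whereas both haploid p53-KO EpiSC libraries were at or above Epi_fema. Exons of Cdkn1a overlap AC167363.2 on the opposite strand, and without a stated strand setting the reads of both cannot be told apart.

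Ccng1 (chr11:40748552-40755311) encodes cyclin G1, which recruits a phosphatase to Mdm2. Its level was 137 CPM in haEpi1_1, 245 CPM in haEpi5_1, 33.8 CPM in p53KO2nEpiSCs, 108 CPM in Epi_fema and 421 CPM in Epi_male. It was 30.2 CPM in p53KOhaEpiLCs, 457 CPM in WT_haEpiLCs, 50.7 CPM in haESCs, 339 CPM in WT_ESCs and 200.5 CPM in MEF. The 2 lowest libraries were the p53-KO ones p53KOhaEpiLCs and p53KO2nEpiSCs, followed by haESCs. Psrc1 (chr3:108383839-108388231), a microtubule-binding protein gene, differed in its order. Its level was 33.1 CPM in haEpi1_1, 45.9 CPM in haEpi5_1, 52.8 CPM in p53KO2nEpiSCs, 49.5 CPM in Epi_fema and 184 CPM in Epi_male. It was 19.3 CPM in p53KOhaEpiLCs, 208 CPM in WT_haEpiLCs, 10.4 CPM in haESCs, 177 CPM in WT_ESCs and 39.0 CPM in MEF. Its level in p53KO2nEpiSCs was thus close to that in Epi_fema, and all p53-KO EpiSC libraries lay far below Epi_male. Btg2, an antiproliferative gene, was 28.5 CPM in haEpi1_1, 39.2 CPM in haEpi5_1, 41.6 CPM in p53KO2nEpiSCs, 25.8 CPM in Epi_fema and 149 CPM in Epi_male. It was 9.57 CPM in p53KOhaEpiLCs, 40.4 CPM in WT_haEpiLCs, 24.2 CPM in haESCs, 54.1 CPM in WT_ESCs and 23.7 CPM in MEF. Epi_male alone among EpiSC stood high, and p53KOhaEpiLCs was the lowest library.

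The polo-like kinase genes Plk2 and Plk3 differed from each other. Plk2 stood at 136 CPM in haEpi1_1, 134 CPM in haEpi5_1, 86.9 CPM in p53KO2nEpiSCs, 73.9 CPM in Epi_fema and 168 CPM in Epi_male. Plk2 stood at 9.82 CPM in p53KOhaEpiLCs, 57.9 CPM in WT_haEpiLCs, 44.4 CPM in haESCs, 53.3 CPM in WT_ESCs and 128 CPM in MEF. Plk2 was therefore lowest in p53KOhaEpiLCs, while all p53-KO EpiSC libraries lay between both wild-type ones. Plk3 stood at 47.5 CPM in haEpi1_1, 40.4 CPM in haEpi5_1, 21.0 CPM in p53KO2nEpiSCs, 23.3 CPM in Epi_fema and 26.0 CPM in Epi_male. Plk3 stood at 76.4 CPM in p53KOhaEpiLCs, 35.0 CPM in WT_haEpiLCs, 73.0 CPM in haESCs, 28.1 CPM in WT_ESCs and 12.8 CPM in MEF. Both haploid p53-KO EpiSC libraries were above both wild-type ones, whereas p53KO2nEpiSCs was below both, with a counting interval (18.8 to 23.4 CPM) that overlaps that of Epi_fema (21.1 to 25.6 CPM). p53KOhaEpiLCs was above WT_haEpiLCs, and haESCs was above WT_ESCs. Exons of Plk3 overlap Tctex1d4 on the opposite strand. Gadd45a, a stress sensor, was 37.6 CPM in p53KOhaEpiLCs and 39.4 CPM in WT_haEpiLCs. It ranged from 17.5 CPM (WT_ESCs) to 55.7 CPM (Epi_male) over all libraries, with no common order by label. Exons of Gadd45a overlap E230016M11Rik on the opposite strand.

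**Figure D2:**
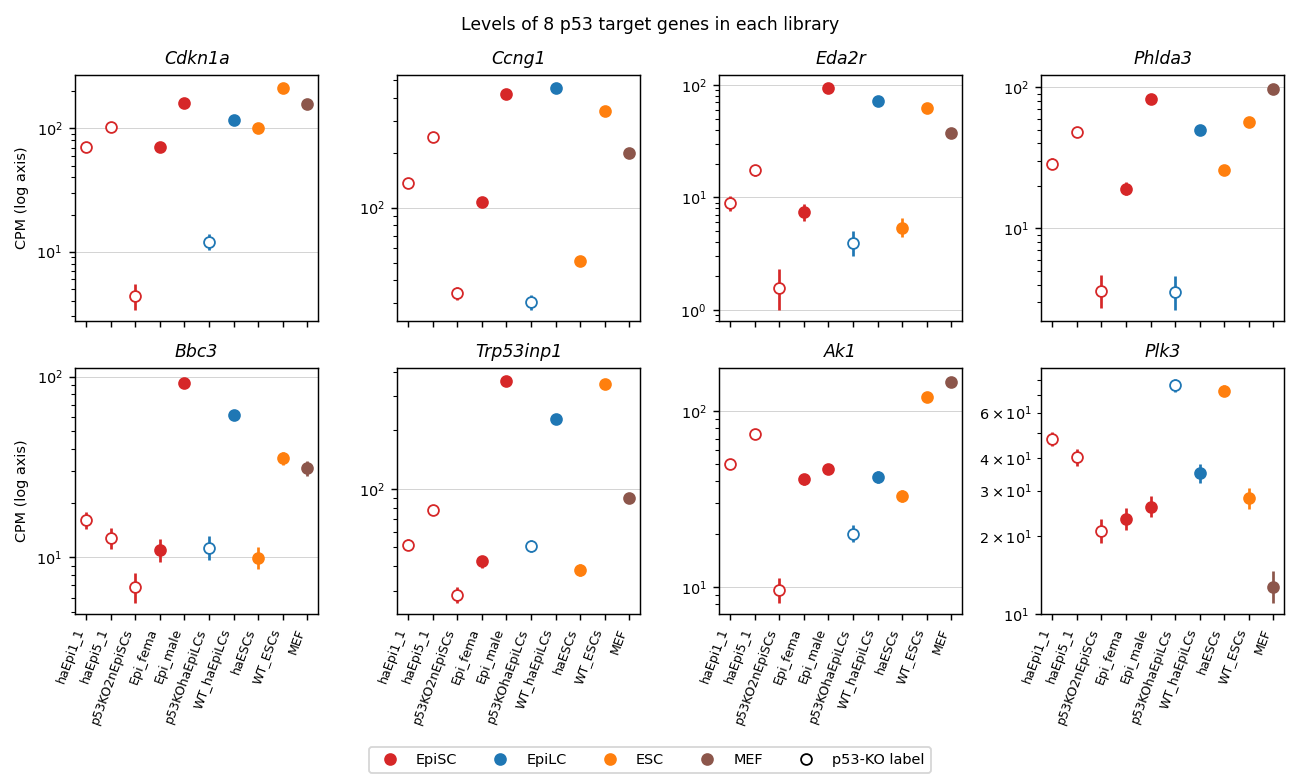
Levels of 8 p53 target genes in each library, in CPM on a log axis; each point is 1 library with its 95% Poisson interval, colours give the cell type and open points the p53-KO label. Cdkn1a and Phlda3 are low at p53KO2nEpiSCs and p53KOhaEpiLCs, Eda2r, Bbc3 and Trp53inp1 are also low at Epi_fema and haESCs, and Plk3 is high at the haploid p53-KO libraries and haESCs.

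Of the 10 members linked to apoptosis, 7 were at least 2-fold lower in p53KOhaEpiLCs than in WT_haEpiLCs, 8 in haESCs than in WT_ESCs and 7 in Epi_fema than in Epi_male; 6 of them (Bbc3, Trp53inp1, Phlda3, Pidd1, Aen and Apaf1) did so in all 3 pairs. The shares over all genes were 9.80%, 11.3% and 9.24% in the EpiLC, ESC and EpiSC pairs and 0.710% in all 3. Bbc3 (chr7:16308393-16318205) encodes Puma, a BH3-only protein that activates Bax. It stood at 16.1 CPM in haEpi1_1, 12.7 CPM in haEpi5_1, 6.82 CPM in p53KO2nEpiSCs, 10.9 CPM in Epi_fema and 92.3 CPM in Epi_male. Outside EpiSC it stood at 11.3 CPM in p53KOhaEpiLCs, 61.0 CPM in WT_haEpiLCs, 9.99 CPM in haESCs, 35.4 CPM in WT_ESCs and 31.0 CPM in MEF. Epi_male was thus far above the other EpiSC libraries, and haESCs was as low as p53KOhaEpiLCs. Trp53inp1 (chr4:11156431-11174379), a stress protein gene that acts with p53, was likewise far highest in Epi_male among EpiSC. Its level was 51.7 CPM in haEpi1_1, 77.7 CPM in haEpi5_1, 28.5 CPM in p53KO2nEpiSCs, 42.3 CPM in Epi_fema and 358 CPM in Epi_male. It was 51.0 CPM in p53KOhaEpiLCs, 229 CPM in WT_haEpiLCs, 38.5 CPM in haESCs, 347 CPM in WT_ESCs and 90.0 CPM in MEF. As for Bbc3, Epi_fema lay below both haploid p53-KO EpiSC libraries.

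Phlda3 (chr1:135766119-135769136) encodes a pleckstrin-homology protein that represses Akt. It was at 28.8 CPM in haEpi1_1, 48.3 CPM in haEpi5_1, 3.60 CPM in p53KO2nEpiSCs, 19.1 CPM in Epi_fema and 82.7 CPM in Epi_male. It was at 3.53 CPM in p53KOhaEpiLCs, 50.0 CPM in WT_haEpiLCs, 25.9 CPM in haESCs, 57.0 CPM in WT_ESCs and 97.5 CPM in MEF. The interval was 2.73 to 4.65 CPM in p53KO2nEpiSCs and 2.66 to 4.58 CPM in p53KOhaEpiLCs, and no other library was below 19.1 CPM (Epi_fema). Bax, the pore-forming death effector, varied less: 82.3 CPM in p53KOhaEpiLCs against 219.7 CPM in WT_haEpiLCs, and 67.6 CPM (p53KO2nEpiSCs) to 137 CPM (Epi_male) in EpiSC. Apaf1, the scaffold of the apoptosome, was 73.4 CPM in p53KO2nEpiSCs, above Epi_fema (46.2 CPM). Pidd1, an activator of caspase-2, ran from 11.2 CPM (MEF) to 103 CPM (WT_haEpiLCs). Aen, a nuclease of apoptotic cells, was 64.1 CPM in haEpi1_1, 69.3 CPM in haEpi5_1, 48.1 CPM in p53KO2nEpiSCs, 61.4 CPM in Epi_fema and 134 CPM in Epi_male. It was 68.1 CPM in p53KOhaEpiLCs, 169 CPM in WT_haEpiLCs, 56.0 CPM in haESCs, 116 CPM in WT_ESCs and 70.4 CPM in MEF. Its highest levels were in the same 3 libraries as for Bbc3. Ei24, a protein of the endoplasmic reticulum, was 53.6 CPM in haEpi1_1, 71.9 CPM in haEpi5_1, 43.4 CPM in p53KO2nEpiSCs, 72.4 CPM in Epi_fema and 86.0 CPM in Epi_male. It was 46.7 CPM in p53KOhaEpiLCs, 85.9 CPM in WT_haEpiLCs, 59.5 CPM in haESCs, 143 CPM in WT_ESCs and 93.4 CPM in MEF. All p53-KO EpiSC libraries lay below both wild-type ones for Ei24. The counting interval of haEpi5_1 (68.0 to 76.0 CPM) overlapped that of Epi_fema (68.6 to 76.4 CPM). Exons of Bax overlap Gm45808 and those of Ei24 overlap Gm26787.

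Pmaip1 and Perp, also linked to apoptosis, did not follow the label throughout. Pmaip1 was lower in p53KOhaEpiLCs than in WT_haEpiLCs but not in p53-KO EpiSC as a whole. Perp was below both wild-type EpiSC libraries in p53KO2nEpiSCs, but not in the haploid p53-KO EpiSC libraries or in EpiLC. Pmaip1 (chr18:66458604-66465550) encodes Noxa, a BH3-only protein. It stood at 69.5 CPM in haEpi1_1, 92.6 CPM in haEpi5_1, 99.0 CPM in p53KO2nEpiSCs, 98.5 CPM in Epi_fema and 76.9 CPM in Epi_male. It stood at 68.8 CPM in p53KOhaEpiLCs, 121 CPM in WT_haEpiLCs, 27.2 CPM in haESCs, 17.2 CPM in WT_ESCs and 22.2 CPM in MEF. Its EpiSC levels in p53KO2nEpiSCs and Epi_fema were within counting error of each other, and ESC and MEF lay below all EpiSC and EpiLC libraries. Perp, a membrane protein of desmosomes, was 55.4 CPM in haEpi1_1, 98.1 CPM in haEpi5_1, 21.8 CPM in p53KO2nEpiSCs, 33.5 CPM in Epi_fema and 73.1 CPM in Epi_male. It was 11.3 CPM in p53KOhaEpiLCs, 10.2 CPM in WT_haEpiLCs, 19.0 CPM in haESCs, 10.004 CPM in WT_ESCs and 5.04 CPM in MEF. Every EpiSC library was above every EpiLC library, and p53KOhaEpiLCs and WT_haEpiLCs were close. Zmat3, a zinc finger protein that binds RNA, was high in the same libraries as Bbc3. It stood at 69.6 CPM in haEpi1_1, 56.1 CPM in haEpi5_1, 78.0 CPM in p53KO2nEpiSCs, 70.6 CPM in Epi_fema and 184 CPM in Epi_male. It stood at 45.2 CPM in p53KOhaEpiLCs, 217 CPM in WT_haEpiLCs, 40.8 CPM in haESCs, 176 CPM in WT_ESCs and 111 CPM in MEF.

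Among the 6 receptor, ligand and signalling genes, Eda2r (chrX:97333840-97377216, on chromosome X), the receptor of ectodysplasin A2, ranged from 1.55 to 93.9 CPM. It stood at 8.89 CPM in haEpi1_1, 17.4 CPM in haEpi5_1, 1.55 CPM in p53KO2nEpiSCs, 7.39 CPM in Epi_fema and 93.9 CPM in Epi_male. Outside EpiSC it stood at 3.90 CPM in p53KOhaEpiLCs, 71.6 CPM in WT_haEpiLCs, 5.39 CPM in haESCs, 62.1 CPM in WT_ESCs and 37.3 CPM in MEF. Epi_male, WT_haEpiLCs, WT_ESCs and MEF stood apart from the others, which were at most 17.4 CPM. Gdf15, a stress-induced cytokine, was 0.310 CPM in p53KO2nEpiSCs (5 counts) and at most 14.2 CPM (WT_haEpiLCs). Fas, a death receptor, held 5 to 185 counts per library, with 6.16 CPM in haEpi5_1 and 11.8 CPM in MEF as the highest levels. Its pluripotent levels otherwise lay at 0.310 to 2.50 CPM. These levels rest on few counts. The death receptor gene Tnfrsf10b ran from 32.6 CPM (MEF) to 86.8 CPM (Epi_male). Epha2, an ephrin receptor gene, was high in all EpiSC libraries (212 to 304 CPM) and 19.1 CPM in MEF. Rap2b, a small GTPase gene, was 9.57 CPM in p53KOhaEpiLCs against 27.9 CPM in WT_haEpiLCs.

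The 5 DNA repair genes split. Ercc5, an endonuclease of nucleotide excision repair, and Polk, a translesion polymerase, were at least 2-fold lower in p53KOhaEpiLCs, haESCs and Epi_fema than in their counterparts. Ercc5 stood at 26.3 CPM in haEpi1_1, 29.8 CPM in haEpi5_1, 28.7 CPM in p53KO2nEpiSCs, 28.2 CPM in Epi_fema and 77.3 CPM in Epi_male. Ercc5 stood at 20.5 CPM in p53KOhaEpiLCs, 68.9 CPM in WT_haEpiLCs, 22.6 CPM in haESCs, 46.0 CPM in WT_ESCs and 39.1 CPM in MEF. The 3 p53-KO EpiSC libraries were close to Epi_fema and far below Epi_male. Polk ran from 11.9 CPM (haESCs) to 48.9 CPM (Epi_male). Xpc and Ddb2, which recognise damaged DNA, and Rrm2b, a ribonucleotide reductase subunit, had narrower ranges: 19.8 to 25.2 CPM of Xpc, 6.48 to 11.4 CPM of Ddb2 and 7.88 to 15.6 CPM of Rrm2b over EpiSC. Exons of Ddb2 overlap Acp2 and those of Rrm2b overlap Gm49085 on the opposite strand.

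Of the 7 metabolic members, Dcxr, a carbonyl reductase gene, was at least 2-fold lower in all 3 pairs, and Ak1, an adenylate kinase gene, set p53KO2nEpiSCs apart. Ak1 stood at 50.0 CPM in haEpi1_1, 74.7 CPM in haEpi5_1, 9.61 CPM in p53KO2nEpiSCs, 41.0 CPM in Epi_fema and 47.2 CPM in Epi_male. Ak1 stood at 20.1 CPM in p53KOhaEpiLCs, 42.3 CPM in WT_haEpiLCs, 32.9 CPM in haESCs, 121 CPM in WT_ESCs and 146 CPM in MEF. Both wild-type EpiSC libraries were close together and below both haploid p53-KO ones, which differs from Cdkn1a and Ccng1. The counting interval of haEpi1_1 (47.0 to 53.2 CPM) overlapped that of Epi_male (44.0 to 50.5 CPM) for Ak1. Dcxr stood at 7.38 CPM in haEpi1_1, 20.1 CPM in haEpi5_1, 1.92 CPM in p53KO2nEpiSCs, 7.77 CPM in Epi_fema and 24.7 CPM in Epi_male. Dcxr stood at 3.27 CPM in p53KOhaEpiLCs, 20.6 CPM in WT_haEpiLCs, 3.85 CPM in haESCs, 21.1 CPM in WT_ESCs and 14.3 CPM in MEF. The lowest levels of Dcxr were in p53KO2nEpiSCs, p53KOhaEpiLCs and haESCs. The sestrin genes Sesn2 and Sesn1, whose products restrain mTORC1, differed from each other. Sesn2 stood at 100.2 CPM in haEpi1_1, 117 CPM in haEpi5_1, 51.8 CPM in p53KO2nEpiSCs, 96.8 CPM in Epi_fema and 165 CPM in Epi_male. Sesn2 stood at 79.4 CPM in p53KOhaEpiLCs, 189 CPM in WT_haEpiLCs, 34.3 CPM in haESCs, 159 CPM in WT_ESCs and 77.2 CPM in MEF. Sesn1 stood at 15.1 CPM in haEpi1_1, 14.5 CPM in haEpi5_1, 19.7 CPM in p53KO2nEpiSCs, 14.2 CPM in Epi_fema and 17.1 CPM in Epi_male. Sesn1 was thus highest among EpiSC in p53KO2nEpiSCs. Outside EpiSC, Sesn1 stood at 29.3 CPM in p53KOhaEpiLCs, 19.9 CPM in WT_haEpiLCs, 27.8 CPM in haESCs, 34.7 CPM in WT_ESCs and 31.7 CPM in MEF. Tigar, which lowers glycolytic flux, stood at 28.8 CPM in haEpi1_1, 29.2 CPM in haEpi5_1, 23.3 CPM in p53KO2nEpiSCs, 28.2 CPM in Epi_fema and 28.1 CPM in Epi_male. Tigar stood at 47.8 CPM in p53KOhaEpiLCs, 60.7 CPM in WT_haEpiLCs, 55.9 CPM in haESCs, 103 CPM in WT_ESCs and 9.75 CPM in MEF. The EpiSC libraries lay close together for Tigar, below both ESC libraries. Exons of Tigar overlap Platr31 on the opposite strand. Fdxr, a mitochondrial reductase gene, ran from 7.43 to 19.3 CPM over the pluripotent libraries, and Pltp, a phospholipid transfer gene, from 8.68 to 32.3 CPM.

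The EpiLC pair compared the p53-KO and the wild-type haploid library. p53 targets stood lower in p53KOhaEpiLCs: 32 of 36 were below WT_haEpiLCs, where 48.7% of all genes were, and 21 were at least 2-fold lower, where 9.80% of all genes were. Plk3 alone was at least 2-fold higher, where 17.3% of all genes were. The median log2 ratio was -1.30 over the members and 0.02 over all genes. The largest were Eda2r at -4.16 (95% counting interval -4.59 to -3.83), Ccng1 at -3.92, Phlda3 at -3.79, Psrc1 at -3.43 and Cdkn1a at -3.27 (-3.49 to -3.06). They were followed by Dcxr at -2.61, Plk2 at -2.55, Bbc3 at -2.42, Pidd1 at -2.30, Zmat3 at -2.27, Trp53inp1 at -2.17 and Btg2 at -2.07. At the other end stood Plk3 at 1.12, Sesn1 at 0.55, Perp at 0.13 and Rrm2b at 0.12. With 1 library a side there is no replicate check and no test. The libraries also differed in cell state markers: naive markers summed to 777 CPM in p53KOhaEpiLCs and 80.3 CPM in WT_haEpiLCs, and post-implantation markers to 1154 and 4085 CPM, with none of the 10 and 8 markers at 0. Fibroblast markers summed to 119 and 41.5 CPM, with 2 of 12 at 0 in WT_haEpiLCs. The part of these markers in the result was not tested.

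Libraries that share the wild-type label differed about as much as the EpiLC pair. In Epi_fema, 20 of 36 members were at least 2-fold lower than in Epi_male, where 9.24% of all genes were, and none was at least 2-fold higher, where 14.1% of all genes were. The median log2 ratio was -1.15 over the members and 0.01 over all genes. Eda2r stood at -3.64, Trp53inp1 at -3.07, Bbc3 at -3.06, Btg2 at -2.52, Phlda3 at -2.10 and Cdkn1a at -1.19, while Ak1 (-0.20), Xpc (-0.03) and Tigar (0.01) were close to 0. In haESCs, 20 members were at least 2-fold lower than in WT_ESCs (background 11.3%) and 2, Fas and Plk3, at least 2-fold higher (background 20.3%). The median log2 ratio was -1.09 against 0.02 over all genes. Psrc1 stood at -4.09, Eda2r at -3.52, Trp53inp1 at -3.19, Ccng1 at -2.76 and Cdkn1a at -1.10. The ESC pair differs in ploidy and the EpiSC pair in the fema and male of the titles, and neither has a replicate. Comparing Epi_fema with Epi_male, and counting members over all 3 pairs, was chosen after the values were seen.

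These 3 pairs share no library. Of the 36 members, 15 were at least 2-fold lower in p53KOhaEpiLCs, haESCs and Epi_fema alike, where 0.710% of all genes were, and 25 were lower in all 3 pairs, where 18.8% of all genes were. The 15 were Eda2r, Ccng1, Phlda3, Psrc1, Cdkn1a, Dcxr, Bbc3, Pidd1, Zmat3, Trp53inp1, Btg2, Ercc5, Polk, Aen and Apaf1. Across the 36 members, Pearson's r of the log2 ratios was 0.71 between the EpiLC and ESC pairs, 0.71 between the EpiLC and wild-type EpiSC pairs and 0.58 between the ESC and wild-type EpiSC pairs; genes are not independent replicates, and each pair rests on the depth of 2 libraries. Trp53 itself went the same way, with a log2 ratio of -3.44 in EpiLC, -3.74 in ESC and -2.42 in wild-type EpiSC. Fibroblast markers summed to 856 CPM in Epi_fema and 414 CPM in Epi_male, and to 1009 CPM in haESCs and 22.7 CPM in WT_ESCs, with 5 of 12 at 0 in the last. Naive markers summed to 1590.4 CPM in haESCs and 3237 CPM in WT_ESCs. The part of Trp53 and of these markers in the result was not tested.

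**Figure D3:**
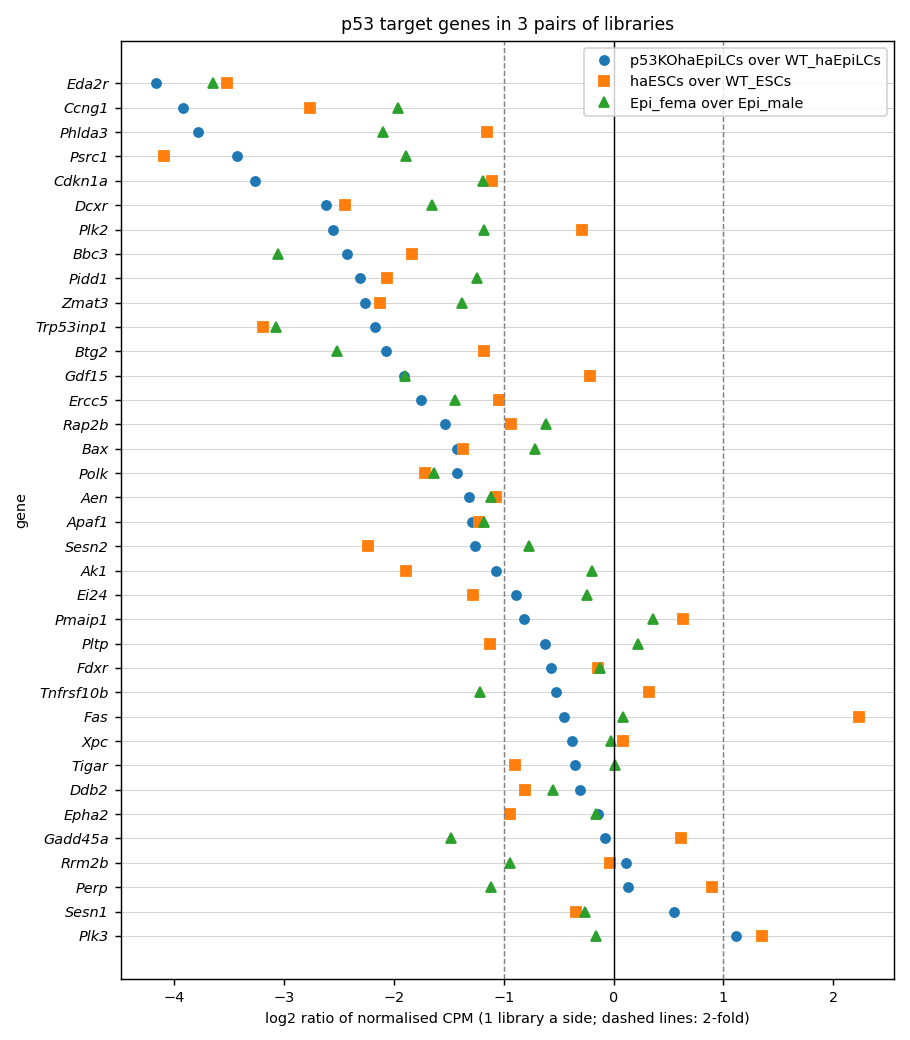
Log2 ratios of normalised CPM of the 36 members in 3 pairs of libraries (circles p53KOhaEpiLCs over WT_haEpiLCs, squares haESCs over WT_ESCs, triangles Epi_fema over Epi_male), ordered by the EpiLC pair; 1 library a side, with dashed lines at 2-fold. Eda2r, Ccng1, Phlda3 and Psrc1 lie left of the 2-fold line in all pairs, and Plk3 lies right of 0 in the EpiLC and ESC pairs.

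In EpiSC, the diploid p53-KO library stood lowest for many members. Against Epi_fema, the median log2 ratio over the members was -0.30 in p53KO2nEpiSCs, 0.06 in haEpi1_1 and 0.45 in haEpi5_1. Against Epi_fema, 8 members were at least 2-fold lower in p53KO2nEpiSCs (background 14.3%), but none was in haEpi1_1 (background 6.04%) or haEpi5_1 (background 12.8%). Against Epi_male, 20 were in p53KO2nEpiSCs (background 9.67%), 15 in haEpi1_1 (background 7.83%) and 10 in haEpi5_1 (background 12.4%). These counts share their wild-type libraries. In order, 23 of 36 members in p53KO2nEpiSCs lay below both wild-type libraries (background 31.2%) and Pmaip1, Sesn1 and Rrm2b above both (background 30.7%), Pmaip1 by less than counting error over Epi_fema (35.8 against 36.3 FPKM, the other order). In both haploid p53-KO libraries, Zmat3, Psrc1, Ei24, Xpc, Ddb2 and Fdxr lay below both wild-type ones (background 15.5%) and Tigar, Ak1, Gdf15, Plk3 and Pltp above both (background 16.2%). Every p53-KO library was below every wild-type one for Ei24, Xpc and Fdxr, 3 of 36 (background 8.25%), a share near the background, and above for none (background 7.99%). These orders take no account of counting error. For Ei24, Xpc and Fdxr, the counting interval of a haploid p53-KO library overlapped that of Epi_fema. Such overlap with a wild-type library was also seen in a haploid library for Zmat3, Psrc1, Ddb2, Tigar, Ak1, Gdf15 and Pltp. Fibroblast markers summed to 937 CPM in haEpi1_1, 1726 CPM in haEpi5_1 and 1179 CPM in p53KO2nEpiSCs, with none of the 12 at 0 in any EpiSC library, and their part in these differences was not tested.

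Haploid p53-KO and wild-type EpiSC (2 against 2 libraries) differ in the p53 label and in ploidy, which cannot be told apart here. No member passed edgeR's quasi-likelihood test after Benjamini-Hochberg adjustment over 18153 genes, of which 0% passed. Psrc1 and Plk3 had an unadjusted p under 0.05 (background 3.53%), and DESeq2 called 0 members. The log2 fold change was -1.56 ± 0.58 (SE, edgeR adjusted p = 0.976) for Psrc1, 0.84 ± 0.27 (SE, edgeR adjusted p = 0.976) for Plk3 and -1.83 ± 0.86 (SE, edgeR adjusted p = 0.976) for Bbc3. It was -0.41 ± 0.42 (SE, edgeR adjusted p = 0.976) for Cdkn1a. The median was -0.26 over the members and -0.01 over all genes. A wild-type library decided these values. Without Epi_fema, the log2 fold changes of Psrc1, Bbc3, Trp53inp1, Eda2r and Btg2 ran from -2.13 (Btg2) to -2.83 (Eda2r). In that fit the wild-type side is Epi_male alone, and the spread comes only from haEpi1_1 and haEpi5_1. Without Epi_male none passed and the median turned to 0.30.

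Diploid p53-KO against wild-type EpiSC (1 against 2 libraries) has the same ploidy on both sides. 33 of 36 members had a negative log2 fold change, where 55.3% of all genes had, with a median of -0.86 against -0.07. No member passed the edgeR test (0% of all genes did), and 10 had an unadjusted p under 0.05 (background 3.86%). DESeq2, run on all 54532 genes, called 135, of which 5 were members, Cdkn1a, Phlda3, Ak1, Ccng1 and Dcxr, all lower. It gives no adjusted p to genes without counts, and its default filter can drop genes with low counts. Here and below, DESeq2 thus tested fewer than 54532 genes. By edgeR the log2 fold change was -4.75 ± 0.68 (SE, edgeR adjusted p = 0.463) for Cdkn1a, -2.21 ± 0.40 (SE, edgeR adjusted p = 0.742) for Ak1 and -3.83 ± 0.99 (SE, edgeR adjusted p = 1) for Phlda3. Eda2r stood at -5.03 ± 1.64, Dcxr at -3.08 ± 1.01, Ccng1 at -2.97 ± 0.88 and Sesn2 at -1.35 ± 0.41. The single p53-KO library is assumed to vary like the others. Without Epi_fema, the log2 fold change was -5.23 for Cdkn1a, -3.64 for Ccng1, -4.53 for Phlda3, -3.76 for Bbc3, -5.92 for Eda2r and -3.66 for Trp53inp1. Without Epi_male it was -4.04 for Cdkn1a. These fits set 1 library against 1, with all of the spread taken from haEpi1_1 and haEpi5_1, so they do not test the condition.

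**Figure D4:**
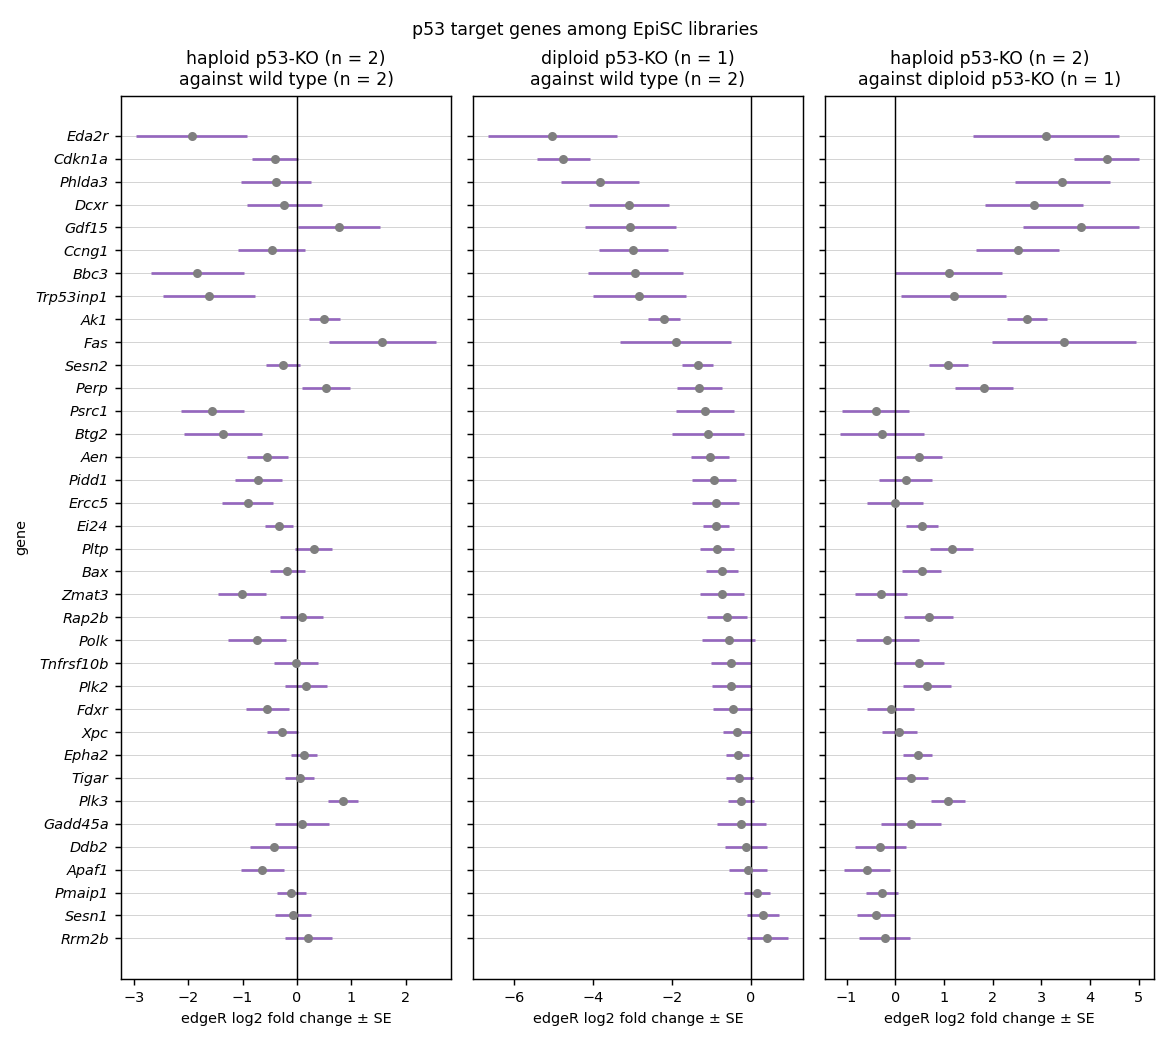
EdgeR log2 fold changes ± SE of the 36 members among the EpiSC libraries, for haploid p53-KO against wild type, diploid p53-KO against wild type and haploid against diploid p53-KO, ordered by the middle panel; the x axes differ in range. Cdkn1a, Phlda3 and Ccng1 are near 0 on the left, far below 0 in the middle and far above 0 on the right, and no value passed the test.

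The haploid and the diploid p53-KO EpiSC libraries (2 against 1) share the p53 label and differ in ploidy and line. Most members stood higher in the haploid ones: 25 of 36 had a positive log2 fold change and 11 a negative one, where 46.3% of all genes had a negative one. The median log2 fold change was 0.51 against 0.05 over all genes. No member passed edgeR (0% of all genes did), and 10 had an unadjusted p under 0.05 (background 5.55%). DESeq2, run on all 54532 genes, called 268, of which 5 were members, Cdkn1a, Phlda3, Ak1, Ccng1 and Dcxr, all with a higher log2 fold change. By edgeR it was 4.35 ± 0.66 (SE, edgeR adjusted p = 0.381) for Cdkn1a and 2.71 ± 0.42 (SE, edgeR adjusted p = 0.381) for Ak1, with Phlda3 at 3.43 ± 0.97, Gdf15 at 3.82 ± 1.19 and Ccng1 at 2.51 ± 0.86. Without Epi_fema, the log2 fold change in this contrast was 4.35 for Cdkn1a, 3.43 for Phlda3, 2.71 for Ak1 and 3.09 for Eda2r. Without Epi_male it was 4.34 for Cdkn1a, 2.50 for Ccng1, 3.42 for Phlda3 and 2.70 for Ak1. In both fits the spread again comes only from haEpi1_1 and haEpi5_1. Trp53 was also higher in the haploid libraries, by 4.70 ± 1.12 (edgeR adjusted p = 0.634). When all 3 p53-KO EpiSC libraries shared a mean, none of the members passed edgeR (0% of all genes did), 3 had an unadjusted p under 0.05 (background 2.81%) and DESeq2 called 0. The lowest values there were Eda2r at -2.44 ± 1.13, Bbc3 at -2.12 ± 0.79 and Trp53inp1 at -1.93 ± 0.79.

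Over the 9 pluripotent libraries, a fit with additive terms for the p53 label, ploidy and cell type gave the effect of the p53-KO label (4 against 5 libraries). Both ESC libraries are labelled wild type, so within a cell type the label is contrasted only in EpiSC (3 against 2) and EpiLC (1 against 1). 32 of 36 members were lower with the label, where 51.2% of all genes were, with a median log2 fold change of -0.68 against -0.01 over all genes. No member passed edgeR (0% of all genes did), 3 had an unadjusted p under 0.05 (background 3.07%) and DESeq2 called 0. The smallest p-values belonged to Cdkn1a at -2.97 ± 1.13 (SE, edgeR adjusted p = 1), Phlda3 at -2.94 ± 1.15 and Bbc3 at -2.15 ± 0.92. Eda2r had the most negative value, -3.43 ± 1.77. Plk3 (0.22 ± 0.34), Perp (-0.57 ± 0.46), Sesn1 (0.40 ± 0.26) and Rrm2b (0.28 ± 0.36) had small values of either sign. Leaving out Epi_fema and haESCs, a choice made after seeing the data, moved the median to -1.26, still with 0 members called.

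The haploid label in the same fit (5 against 4 libraries) gave a median of -0.03 over the members, with no member past edgeR (0% of all genes were), 3 with an unadjusted p under 0.05 (background 4.72%) and 0 called by DESeq2. These 3 were Fas (2.80 ± 0.91), Plk3 (0.94 ± 0.35) and Perp (1.19 ± 0.47). Both EpiLC libraries are haploid, so within a cell type ploidy is contrasted only in EpiSC and ESC. The difference of the p53-KO effect between EpiSC and EpiLC was tested in a fit with 1 mean per group. The haploid p53-KO effect sets haploid against diploid libraries in EpiSC, and haploid against haploid libraries in EpiLC. Ploidy and cell type thus cannot be told apart in that difference. The haploid p53-KO effect was less negative in EpiSC than in EpiLC for 33 of 36 members, by a median of 0.73 against -0.10 over all genes. Over all genes, 54.9% had a negative difference. No member passed edgeR (0% of all genes did), and 5 had an unadjusted p under 0.05 (background 5.10%). DESeq2, run on all 54532 genes, called 125, of which 3 were members, Cdkn1a, Ccng1 and Plk2. The difference was 2.85 ± 0.73 (SE, edgeR adjusted p = 0.682) for Cdkn1a and 2.71 ± 0.69 (SE, edgeR adjusted p = 0.672) for Plk2. Without Epi_male, the difference was 3.57 for Cdkn1a, 4.74 for Ccng1, 4.83 for Phlda3, 3.42 for Plk2, 5.02 for Eda2r and 3.10 for Psrc1. The other 3 arms then hold 1 library each, and the spread comes only from haEpi1_1 and haEpi5_1. Over all fits that left out 1 library, the median difference of the members ran from 0.44 to 1.65. For the diploid p53-KO effect the median difference was 0.02, none passed edgeR (0% of all genes did), 2 had an unadjusted p under 0.05 (background 7.67%) and DESeq2 called 0. Without Epi_male, that difference was 2.79 for Plk2 and 3.52 for Psrc1, on the same spread. Its median over the members ran from -0.07 to 0.79 on leaving out 1 library.

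Between EpiSC and ESC, 4 members differed. In the same additive fit, Pmaip1 and Perp rose in EpiSC against ESC (2 of 36, where 5.31% of all genes rose), and Tigar and Sesn1 fell (2 of 36, where 6.72% fell). The log2 fold change was 2.20 ± 0.38 (SE, edgeR adjusted p = 0.0114) for Pmaip1, 2.35 ± 0.54 (SE, edgeR adjusted p = 0.0304) for Perp, -1.50 ± 0.32 (SE, edgeR adjusted p = 0.0226) for Tigar and -1.27 ± 0.30 (SE, edgeR adjusted p = 0.0318) for Sesn1. Together 4 of 36 members were called, and 12.0% of all genes were, so the share is near the background. Without a stated strand setting, reads of Tigar and of Platr31, which overlaps it, cannot be told apart. Pmaip1 passed in every fit that left out 1 library except that without WT_ESCs (adjusted p = 0.162), where Tigar stood at -0.67. Tigar also missed the threshold without Epi_fema (adjusted p = 0.0659) or Epi_male (0.0709), and Perp without haEpi5_1 (0.058), Epi_male (0.0573), haESCs (0.0985) or WT_ESCs (0.205). Sesn1 missed it in each fit without 1 library except that without p53KO2nEpiSCs. Between EpiLC and ESC no member passed edgeR (0.155% of all genes did, 0.118% higher and 0.0375% lower), and 1 had an unadjusted p under 0.05 (background 14.2%). DESeq2, run on all 54532 genes, called 912, with Pmaip1 the only member. Its edgeR value was 2.10 ± 0.37 (SE, edgeR adjusted p = 0.0819).

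Other genes of the pathway were less uniform. Of 18 further p53 targets, 6 were at least 2-fold lower and 3 at least 2-fold higher in p53KOhaEpiLCs than in WT_haEpiLCs, with a median log2 ratio of -0.40 (backgrounds 9.80% and 17.3%, the higher share near its background). In Epi_fema against Epi_male these counts were 5 and 4 (backgrounds 9.24% and 14.1%), and in haESCs against WT_ESCs 5 and 7 (backgrounds 11.3% and 20.3%). Zfp365, a gene of genome stability, stood at -4.75 in EpiLC, -3.13 in ESC and -2.10 in wild-type EpiSC, and Rps27l, a ribosomal protein paralogue, at -1.41, -1.18 and -0.84. Zfp365 and Rps27l were chosen after their values were seen. Mdm2 stood at 146 CPM in haEpi1_1, 184 CPM in haEpi5_1, 78.9 CPM in p53KO2nEpiSCs, 125 CPM in Epi_fema and 200.4 CPM in Epi_male. It stood at 90.8 against 211 CPM in EpiLC and 101 against 171 CPM in ESC, so its range was smaller than that of Cdkn1a. Among the 10 edgeR contrasts, genes of this list passed only in EpiSC against ESC. In that contrast 1 was higher (background 5.31%) and 1 lower (background 6.72%), shares near the background. Of 13 genes for p53 and its regulators, 1 was called in EpiSC against ESC, a share near the background of 12.0%, and none in the other 9 contrasts. In the EpiLC pair 4 of the 13 were at least 2-fold lower (background 9.80%).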

How the data were processed

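Poly-T selected RNA was sequenced, per the labels' protocols. The submitters' processing notes name the aligner HISAT2 2.0.5, the read counter featureCounts 1.5.0-p3 and the build mm10; the authors deposited raw whole counts. Within rounding, the deposited FPKM are these counts over gene length and 1 constant per library. The sources used here give no strand setting. Of the 36 members 34 had identical coordinates in GENCODE vM21, and exons of 10 overlap another gene.

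The members and lists were chosen with earlier results of these data known. Values in every library are given for Cdkn1a, for members past a test, for the 8 members with the smallest p for haploid p53-KO EpiSC, diploid p53-KO EpiSC and the p53-KO label over all pluripotent cells, and for the 8 with the largest EpiLC ratio; the others by range. Tests used edgeR 4.0.16 under R 4.3.3 (filterByExpr, TMM, quasi-likelihood F test, Benjamini-Hochberg over all genes tested, threshold 0.05); the SE is the log2 fold change over the square root of F. All 36 members passed the filter in each contrast. Pairs of single libraries are log2 ratios with a prior count of 2 over genes with at least 10 counts in either. The fits were tested on simulated data. Alternatives were DESeq2 1.42.0, RLE size factors, no filter, limma 3.58.1 (trend, log2(FPKM + 1) and log2(FPKM + 0.1), at least 1 FPKM in 1 library) and leaving out libraries. All pairs of libraries differed beyond sampling noise by chi-square.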

Additional observations from a re-analysis of the deposited data

Results flagged for a closer look

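The MEF library enters none of the comparisons. In it, 5 members stood above every pluripotent library labelled wild type. The share of all genes that did so was not counted, so this number only describes the members. Phlda3 was 97.5 CPM against at most 82.7 CPM (Epi_male). Ak1 was 146 CPM against at most 121 CPM (WT_ESCs), and Fas 11.8 CPM against at most 2.50 CPM (haESCs). Pltp was 32.4 CPM against 32.3 CPM (WT_ESCs), a difference within counting error. Rap2b was 34.0 CPM against 27.9 CPM (WT_haEpiLCs). Exons of Pltp overlap Ctsa, and those of Rap2b overlap B430305J03Rik and Gm37696, on the opposite strand. With 1 MEF library these differences were not tested.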

How the results depend on the processing

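The label tests rest on 2 wild-type EpiSC libraries that differ strongly, and the number of members called depends on the tool and on single libraries. DESeq2 called 5 members for diploid p53-KO against wild type, 5 for haploid against diploid p53-KO, 1 for EpiLC against ESC and 3 for the difference between the haploid p53-KO effects. Without the low-count filter edgeR called 4 for haploid p53-KO against wild type, 8 for diploid p53-KO against wild type, 7 for haploid against diploid p53-KO, 1 for the p53-KO label over 9 libraries, 1 for EpiLC against ESC, and 4 and 2 for the differences of the haploid and the diploid effect. Limma called no member except 4 for EpiSC against ESC, with either pseudocount. Without Epi_fema and haESCs, which leaves 1 ESC library, the log2 fold change of EpiSC against ESC was 2.43 for Pmaip1 and -1.91 for Tigar. Leaving out 1 library at a time, the members called ran from 0 to 5 (haploid p53-KO against wild type), 0 to 6 (diploid), 0 to 4 (haploid against diploid), 1 to 5 (EpiSC against ESC), 0 to 1 (EpiLC against ESC), 0 to 6 and 0 to 2 (the differences), and stayed at 0 in the other 3 contrasts. Over all genes, where edgeR called 0 in the first 3 contrasts, DESeq2 called 22, 135 and 268, edgeR without the filter 136, 242 and 377, and leaving out 1 library 0 to 144, 0 to 152 and 0 to 224; for EpiLC against ESC the count of 29 became 912 by DESeq2, 917 without the filter and 0 to 204 on leaving out 1 library. For EpiSC against ESC it was 2243, against 3534 by DESeq2, 3813 without the filter and 193 to 2237 on leaving out 1 library. For the differences of the haploid and diploid effects, 0 became 125 and 337 by DESeq2, 271 and 549 without the filter, 160 and 164 by limma with a pseudocount of 1, and 0 to 146 and 0 to 309 on leaving out 1 library. For the p53-KO and haploid labels over 9 libraries, 0 became 25 and 39 by DESeq2. Fits that left out the only library of a group in a contrast of group means could not be estimated. The sign for haploid p53-KO against wild type turned without Epi_male for Cdkn1a (-0.88 to 0.30 over the libraries left out), Bbc3 (-2.67 to 0.39), Trp53inp1 (-2.46 to 0.60), Eda2r (-2.83 to 0.82) and Btg2 (-2.13 to 0.38). The cause of these shifts was not tested. The counts of members at least 2-fold lower in the EpiLC, ESC and wild-type EpiSC pairs, and the order of the libraries, stayed within 1.5 times under a prior count of 0.5, RLE factors and FPKM where these were run. No paired analysis was possible because the labels give no replicate numbers shared between groups.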

Other observations

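Cdkn2a, which encodes the Mdm2 inhibitor Arf and the kinase inhibitor p16, stood at 60.7 CPM in haEpi1_1, 52.9 CPM in haEpi5_1, 44.8 CPM in p53KO2nEpiSCs, 26.4 CPM in Epi_fema and 6.51 CPM in Epi_male, so every p53-KO EpiSC library lay above both wild-type ones, as for 7.99% of all genes. It stood at 42.8 CPM in p53KOhaEpiLCs against 28.5 CPM in WT_haEpiLCs, and at 38.0 CPM in haESCs against 15.2 CPM in WT_ESCs. The p53-KO label over the 9 pluripotent libraries gave a log2 fold change of 0.97 ± 0.50 (SE, edgeR adjusted p = 1), which does not pass. Reads of the transcripts for Arf and p16 are counted together. Cdkn2a was singled out after its values were seen.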
